A study of Mus musculus with 8 samples.

Results

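The contacts of the 4 mouse Hox clusters were measured in B cells during the first cell cycle after stimulation with lipopolysaccharide (LPS), a component of the bacterial cell wall that makes B cells grow and divide. Members were all protein-coding genes of the GENCODE vM21 annotation whose symbol consists of Hoxa, Hoxb, Hoxc or Hoxd and a number, which gave 39 of the 21938 protein-coding genes that could be placed in a bin. Their starts lay in 13 of 48088 autosomal bins of 50 kb on the GRCm38 (mm10) build. HoxA (chr6:52155590-52260880) held 11 genes in 3 bins, HoxB (chr11:96194316-96368256) 10 genes in 4 bins, HoxC (chr15:102921103-103036852) 9 genes in 3 bins and HoxD (chr2:74668310-74765142) 9 genes in 3 bins. The 2 Mb on each side held 231 further protein-coding genes, of which 4 (Evx2 and the predicted 5730596B20Rik, Gm28308 and Gm28230) start inside a Hox bin.

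In situ Hi-C, which ligates and sequences pairs of DNA ends that lie close together in fixed nuclei, was done on 8 libraries from 4 groups of 2 biological replicates each. Naive B cells of C57BL/6 mice were isolated by negative selection, stained with the division-tracking dye CellTrace Violet (CTV) and given LPS at 25 µg/ml. They were collected after 3 h, after 10 h, and at 33 h as cells that had not yet divided but were about to (imminent division). The other group at 33 h, pre-S, came from C57BL/6 FUCCI mice, whose cells carry fluorescent reporters of the cell cycle, and was sorted before DNA replication. Per the study's methods the animals were male and of a C57BL/6 Pep3b background. Every group had received LPS. Only the pre-S group carried the FUCCI reporters, so reporter, sort and cell cycle stage cannot be told apart in its comparisons. Naive, expanded and plasmablast libraries were not analysed here.

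Hox genes encode homeodomain transcription factors that give cells their position along the body axis. In each cluster the genes stand in the order in which they are used, and genes of the same number in different clusters are paralogues, descended from the same ancestral gene. Where Hox genes are silent, Polycomb complexes cover the clusters and the clusters fold into compact domains. In blood, HoxA genes such as Hoxa9 and Hoxa10 are known for their use in stem and progenitor cells.

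The sequences shown first are those on which the contact maps bear. CTCF is a zinc finger protein that binds a motif of its own and anchors loops, and its core motif was searched on both strands. Of the 13 Hox bins, 2 (15.4%) held a match, against 20.4% of 47939 autosomal bins and 41.6% of the 233 autosomal bins with 5 or more gene starts. Both matches lay in HoxB, 1 in the bin of Hoxb13 and 1 in the bin of Hoxb9 to Hoxb6. These bins form 1 of the 8 within-cluster pairs called higher at imminent division below. With matches in only 2 Hox bins, no other within-cluster pair, called or not, could have a match in both bins. The other 2 sequences are from distant partner bins of HoxA and HoxD described below, which were chosen after their contact values were seen. Of the 8 partner bins of the far pairs named below, 5 held 6 matches, 2 on the plus strand and 4 on the minus strand, and the bins of Jazf1, Gtsf1 and Nckap1l held none. Capitals mark the core, the 4 shown are on the minus strand and each runs 5′ to 3′.
Hoxb13 bin, chr11:96157335-96157394: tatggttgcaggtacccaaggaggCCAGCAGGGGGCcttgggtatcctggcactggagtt
Hoxb9 to Hoxb6 bin, chr11:96265851-96265910: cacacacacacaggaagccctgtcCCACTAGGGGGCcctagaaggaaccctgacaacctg
HoxA partner bin, chr6:51168212-51168271: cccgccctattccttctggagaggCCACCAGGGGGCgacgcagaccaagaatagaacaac
HoxD partner bin, chr2:75590389-75590448: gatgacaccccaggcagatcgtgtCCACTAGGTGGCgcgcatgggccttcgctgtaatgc
A match is a description of letters and not a measured binding site.

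Promoters are shown for Hoxa13 and Hoxd13, as examples of the group 13 paralogues. The bins of all 4 paralogues had called contacts within their cluster that were higher at imminent division than after 10 h. This was not particular to group 13. Every bin of HoxC and HoxD had such a contact, as did all HoxB bins with Hox genes except that of Hoxb2 and Hoxb1. The windows run from 250 bases before to 50 bases after the start, are taken from RefSeq on GRCm38.p6, and have each CpG, the dinucleotide that CpG islands are rich in, in capitals. The Hoxa13 window lies on the minus strand and the Hoxd13 window on the plus strand.
Hoxa13, chr6:52260831-52261130: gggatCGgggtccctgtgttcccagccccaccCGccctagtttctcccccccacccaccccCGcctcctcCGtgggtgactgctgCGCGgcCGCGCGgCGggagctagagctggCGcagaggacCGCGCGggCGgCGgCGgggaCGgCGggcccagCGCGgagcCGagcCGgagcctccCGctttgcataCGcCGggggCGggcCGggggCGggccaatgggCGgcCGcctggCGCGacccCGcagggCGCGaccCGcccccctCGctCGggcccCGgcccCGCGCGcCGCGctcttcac
Hoxd13, chr2:74667975-74668274: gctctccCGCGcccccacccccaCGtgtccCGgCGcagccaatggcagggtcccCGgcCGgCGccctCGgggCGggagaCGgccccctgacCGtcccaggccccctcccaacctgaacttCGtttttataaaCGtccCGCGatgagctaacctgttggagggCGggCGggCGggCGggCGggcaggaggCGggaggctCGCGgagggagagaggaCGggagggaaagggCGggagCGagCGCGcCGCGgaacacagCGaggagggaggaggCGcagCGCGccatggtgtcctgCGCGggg
The Hoxa13 window held 45 CpGs at 81% GC and the Hoxd13 window 37 at 74.3% GC. Of the 39 Hox genes, 22 were matched in the promoter table. The median of the 22 windows was 13.5 CpGs, against 7 over 32851 promoters of the same length.

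The libraries held between 88703088 read pairs (3 h, replicate 1) and 218945191 (imminent division, replicate 2), with 70.9% to 75.1% of autosomal read pairs within a chromosome. Imminent division replicate 2 stood apart on the sex chromosomes, with 3.74% of read ends on X against 2.39% to 2.84% in the other 7 libraries and 0.049% on Y against 0.080% to 0.123%. Compartment scores at the B cell markers Cd79a, Cd79b, Ms4a1, Pax5 and Ebf1 were positive in all 8 libraries, but so were those of 5 of 6 T cell markers. Compartment sign at these genes therefore did not check the cell type.

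Within the clusters, contacts were compared first with the mean count of all autosomal bin pairs at the same distance (observed over expected). At 3 h and 10 h HoxA, HoxB and HoxC were close to that mean and HoxD was below it, and all 4 were higher in both groups at 33 h. In HoxD the ratio was 0.723 and 0.775 after 3 h, 0.765 and 0.777 after 10 h, 1.06 and 1.17 at imminent division and 1.09 and 1.12 in pre-S. In HoxC it was 1.07 and 1.17, then 1.21 and 1.16, then 1.53 and 1.51, and in pre-S 1.37 and 1.35. The 4 libraries of 33 h lay above the 4 earlier ones in both clusters without overlap.

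In HoxB the ratio was 1.05 and 1.1 after 3 h, 1.13 and 0.988 after 10 h, 1.32 and 1.29 at imminent division and 1.24 and 1.27 in pre-S. In HoxA it was 1.08 and 1.01, then 1.03 and 0.941, then 1.22 and 1.39, and in pre-S 1.12 and 1.19. The libraries of 33 h lay above the earlier ones here too, although the lowest pre-S library in HoxA was near the highest library of 3 h. For none of the clusters was the share of other bin runs separated in this way computed. Means at imminent division were 1.31 ± 0.12 (SD, n = 2) for HoxA and 1.11 for HoxD, against 0.98 ± 0.06 and 0.771 after 10 h.

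These levels can be placed among all runs of 3 adjacent autosomal bins, which is the size of HoxA, HoxC and HoxD (46876 windows; HoxB spans more and has no such value). At 10 h the level of HoxA stood at percentile 57.8 of windows, that of HoxC at 70.7 and that of HoxD at 39.8. The log2 ratio of imminent division over 10 h was 0.41 in HoxA, 0.36 in HoxC and 0.53 in HoxD, where the median window had 0.05, and these values lay at percentiles 99.1, 97.8 and 99.9. The log2 ratio of pre-S over 10 h was 0.23, 0.20 and 0.52, at percentiles 73.9, 71 and 95.3, so that only HoxD ranked above 95% of windows there. Windows share bins and libraries, and the percentiles are given as descriptions.

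Coverage moved with the HoxA and HoxB values. The interchromosomal read ends of the HoxA bins, relative to the mean autosomal bin, averaged 0.886 after 3 h, 0.813 after 10 h, 0.957 at imminent division and 0.952 in pre-S. For HoxB the group means were 0.937, 0.933, 1.08 and 1.07, for HoxC 1.44, 1.40, 1.47 and 1.43, and for HoxD 0.625, 0.626, 0.658 and 0.642. After the counts were divided by the coverage of both bins, HoxD was still higher at 33 h, with 1.65 and 1.77 after 3 h and 10 h and 2.34 and 2.52 at imminent division and in pre-S, and HoxC went from 0.537 after 10 h to 0.638 and 0.621. HoxA then had 1.09 ± 0.03 (SD, n = 2) after 3 h, 1.30 ± 0.21 after 10 h, 1.26 ± 0.03 at imminent division and 1.18 ± 0.04 in pre-S, and HoxB 1.05, 1.08, 0.988 and 1.01. After the division the means of 33 h were above those of both earlier times in HoxC and HoxD, above 3 h but not 10 h in HoxA, and above neither in HoxB.

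Differential interactions (DIs) are bin pairs whose read pairs differed between groups in the quasi-likelihood test of edgeR at a false discovery rate (FDR) under 0.05 over all 1457814 autosomal pairs tested within chromosomes. All 15 pairs of bins within a Hox cluster were tested, as were 800 pairs with at least 1 anchor in a Hox bin and 8058 pairs inside the 4 neighbourhoods. A read pair count does not separate a contact made in more cells from one made more often per cell. All 3 later comparisons share libraries with one another, since 10 h is the reference of both groups at 33 h and the groups at 33 h are also compared directly.

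Between 3 h and 10 h no Hox-anchored pair was called in edgeR, where 0.000617% of all pairs tested were. Of the 800 anchored pairs 45 had an unadjusted p under 0.05, and of the 15 pairs within clusters 1 did, which joined Hoxc13 and Hoxc12 to the bin of Hoxc11 to Hoxc6 (log2 change 0.23 ± 0.11, edgeR FDR 0.838). The median log2 change over the 15 pairs was -0.03. DESeq2 called 0 of these pairs.

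At imminent division 8 of the 15 pairs within clusters were higher than after 10 h and none was lower, where 0.645% of all pairs tested and 1.95% of those 50 to 200 kb apart were higher, and 1.12% of the latter lower. The 8 comprised 2 of 3 pairs in HoxA, 2 of 6 in HoxB, 2 of 3 in HoxC and 2 of 3 in HoxD. The median log2 change over the 15 was 0.40, against 0.02 over all pairs. Read pairs below are normalised to a common library size and a common trend with average abundance, after 0.5 was added to each count. The trend was fitted apart for pairs under and from 1500 kb apart. A change of decay with distance inside these ranges was not removed.

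In HoxD the contact between the bin of Hoxd13, Hoxd12, Hoxd11, Hoxd10 and Hoxd9, the genes of limb and genital patterning, and the bin of Hoxd8, Hoxd4 and Hoxd3 had 132 and 129 read pairs after 3 h, 138 and 146 after 10 h, 221 and 238 at imminent division and 217 and 218 in pre-S. It rose from 10 h to imminent division by 0.70 ± 0.11 (log2 ± SE, edgeR FDR 7.99e-06). The contact of the same Hoxd13 bin with Hoxd1, at the other end of the cluster, had 60.3 and 67.5 read pairs, then 53.8 and 61.5, then 99.4 and 106, and in pre-S 101 and 90.4. It rose by 0.83 ± 0.16 (edgeR FDR 0.000585). In both pairs the 4 libraries of 33 h lay above the 4 earlier ones. The third pair of HoxD, between the Hoxd8 bin and Hoxd1, had 170 and 160 read pairs after 10 h and 177 and 196 at imminent division and was not called (log2 change 0.19, edgeR FDR 0.431).

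In HoxB both called pairs were anchored in Hoxb13, which stands apart from the rest of its cluster across a bin with no Hox gene. Its contact with Hoxb9, Hoxb8, Hoxb7 and Hoxb6 had 88.8 and 93.8 read pairs after 3 h, 89.2 and 70.2 after 10 h, 145 and 147 at imminent division and 103 and 116 in pre-S, a rise of 0.90 ± 0.14 to imminent division (edgeR FDR 4.64e-06). Its contact with Hoxb5, Hoxb4 and Hoxb3 had 42.0 and 61.4, then 58.9 and 50.6, then 79.5 and 90.4, and in pre-S 76.6 and 82.1 (log2 change 0.66 ± 0.18, edgeR FDR 0.0198). The first of these pairs was highest in the imminent division libraries, and in the other the pre-S libraries overlapped them.

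In HoxA the bin of Hoxa3, Hoxa5, Hoxa6, Hoxa7, Hoxa9, Hoxa10 and Hoxa11 contacted that of Hoxa13, the distal member of the cluster, with 237 and 229 read pairs after 3 h, 208 and 220 after 10 h, 305 and 328 at imminent division and 255 and 284 in pre-S (log2 change to imminent division 0.57 ± 0.10, edgeR FDR 4.02e-05). The imminent division libraries were the highest of the 8 in this pair.

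In HoxC both called pairs ended at Hoxc4. Its contact with Hoxc13 and Hoxc12 had 118 and 141 read pairs after 3 h, 131 and 120 after 10 h, 192 and 182 at imminent division and 154 and 169 in pre-S (0.58 ± 0.12, edgeR FDR 0.00129). Its contact with the bin of Hoxc11, Hoxc10, Hoxc9, Hoxc8, Hoxc6 and Hoxc5 had 188 and 225, then 201 and 212, then 282 and 268, and in pre-S 263 and 254 (0.40 ± 0.10, edgeR FDR 0.0105). All libraries of 33 h were above all earlier ones in both pairs.

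The count of 8 depended on the libraries and on coverage. Without 10 h replicate 2 it was 3 of 15, and leaving out any other single library gave 6 or more. With the interchromosomal coverage of both bins in the offsets 4 pairs were called, namely Hoxd13 to Hoxd8 (0.43, edgeR FDR 0.024), Hoxd13 to Hoxd1 (0.71), Hoxb13 to Hoxb9 (0.55) and Hoxc13 to Hoxc4 (0.43), while the contact of the Hoxa3 to Hoxa11 bin with Hoxa13 had a log2 change of 0.11 (edgeR FDR 0.652). In that fit several HoxB contacts turned negative without being called. Hoxb9 to Hoxb6 with Hoxb5 to Hoxb3 had -0.35. The bin of Hoxb2 and Hoxb1 had -0.29 with Hoxb5 to Hoxb3, -0.16 with Hoxb9 to Hoxb6 and -0.13 with Hoxb13. The remaining HoxB pair, Hoxb13 with Hoxb5 to Hoxb3, had 0.27. DESeq2 called 0 of the 15, with 9 at an unadjusted p under 0.05.

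**Figure D1:**
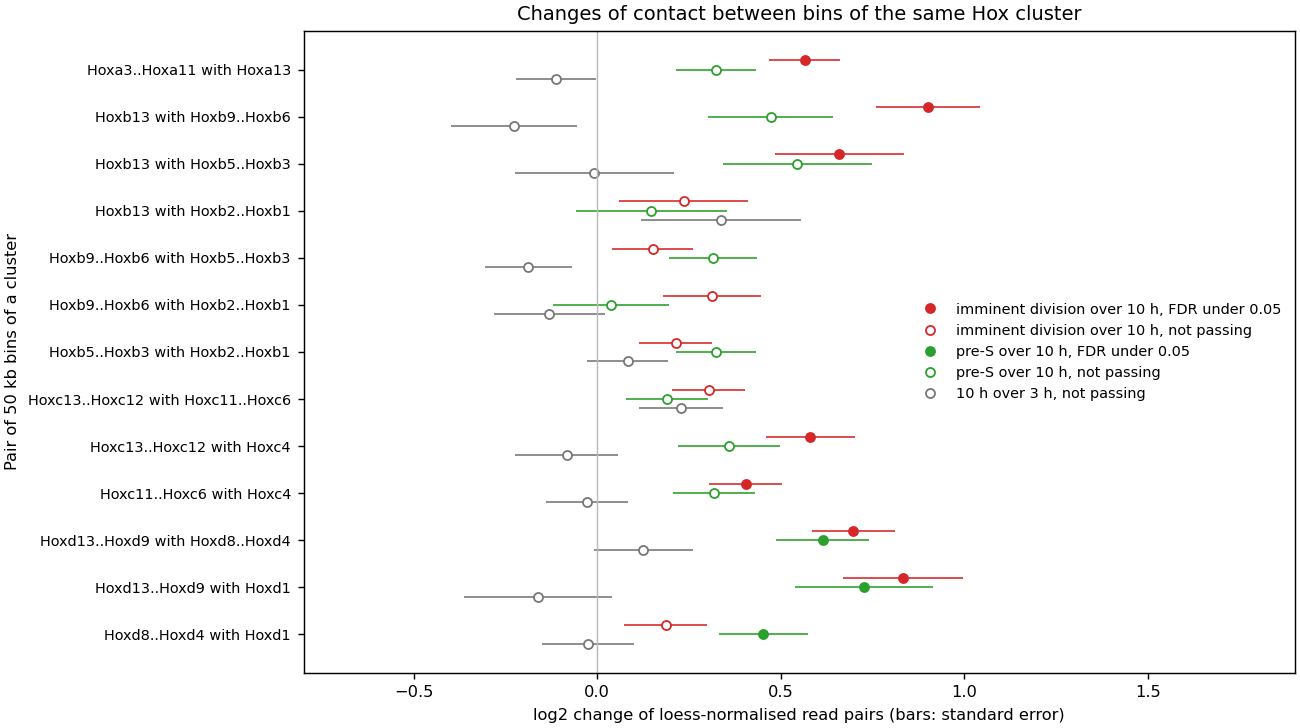
Log2 change of normalised read pairs for 13 of the 15 bin pairs within Hox clusters at imminent division and in pre-S, each against 10 h, and at 10 h against 3 h; points are edgeR estimates, bars their standard errors, and filled points are called at FDR under 0.05. Every pair shown lies above 0 in both comparisons with 10 h as the reference, 7 are called at imminent division and 3, all in HoxD, in pre-S. With interchromosomal coverage in the offsets, not drawn, several HoxB pairs lie below 0 in both comparisons.

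In pre-S cells 3 of the 15 pairs were higher than after 10 h and none was lower, where 0.349% of all pairs tested and 2.12% of those 50 to 200 kb apart were higher, and 0.591% of the latter lower. Of the 15 pairs 8 lie 50 kb apart, as do 2 of the 3 called, and of all pairs 50 kb apart 6.63% were higher. All 3 were in HoxD. The Hoxd13 bin rose against the Hoxd8 bin by 0.61 ± 0.13 (edgeR FDR 0.00228) and against Hoxd1 by 0.73 ± 0.19 (edgeR FDR 0.0334), with the read pairs given above. The Hoxd8 bin and Hoxd1 had 153 and 176 read pairs after 3 h, 170 and 160 after 10 h and 216 and 237 in pre-S (0.45 ± 0.12, edgeR FDR 0.0442). Without either 10 h library, or without either pre-S library, none of the 3 was called, and with coverage in the offsets 0 was called. In HoxA, HoxB and HoxC the changes ran from 0.04 to 0.55 and were not called. With coverage in the offsets they ran from -0.52 (Hoxb9 to Hoxb6 with Hoxb2 and Hoxb1) to 0.26 (Hoxc13 with Hoxc4). The contact of the Hoxa3 to Hoxa11 bin with Hoxa13 then had -0.23. The direct comparison of imminent division with pre-S called 0 of the 15, where 0.372% of all pairs tested were called in either direction, and 4 of the 15 had an unadjusted p under 0.05.

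Beyond the clusters each cluster contacted a few far bins well above the mean for their distance, and these partners bracketed HoxA and HoxD on both sides. The strongest was a bin 1050 kb from HoxA toward lower coordinates, chr6:51150041-51200036, in which no protein-coding gene starts. Its ratio of observed over expected contacts with the HoxA bins was 10.6 and 10.2 after 3 h, 10.2 and 9.62 after 10 h, 9.62 and 12.4 at imminent division and 13.6 and 12.8 in pre-S, over 2451 read pairs in the 8 libraries. On the other side, 700 kb away, a bin inside Jazf1 (chr6:52899587-52950101) had 6.75 and 6.44, then 6.94 and 6.95, then 4.39 and 5.01, and in pre-S 6.69 and 6.84. The imminent division libraries were the lowest at the Jazf1 bin, and the pre-S libraries the highest at the bin near 51 Mb.

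For HoxD the leading partners were the bin of Chrna1, a subunit of the muscle acetylcholine receptor, 1150 kb toward lower coordinates, with group means of 2.97, 3.64, 2.81 and 4.09 from 3 h to pre-S, and chr2:75549520-75599964, a bin without a gene start 850 kb to the other side, with 2.25, 2.41, 2.33 and 3.85. For HoxB they were a bin inside Skap1 (chr11:96549986-96600819), with 3.33, 3.55, 3.38 and 4.03, and a bin overlapping Copz2 (chr11:96850033-96899911), with 2.79, 3.50, 2.39 and 3.03. For HoxC they were the bins of Gpr84 and Zfp385a, with 2.25, 2.61, 1.82 and 2.61, and of Itga5, an integrin subunit, with 2.36, 2.51, 1.49 and 2.25. In all 6 bins the pre-S mean was above the imminent division mean. The 6 were picked by their mean over all 8 libraries, and the share of other far bins with this order was not computed. Replicates differed widely at the Chrna1 bin, with 2.30 and 3.31 at imminent division and 3.51 and 4.68 in pre-S.

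**Figure D2:**
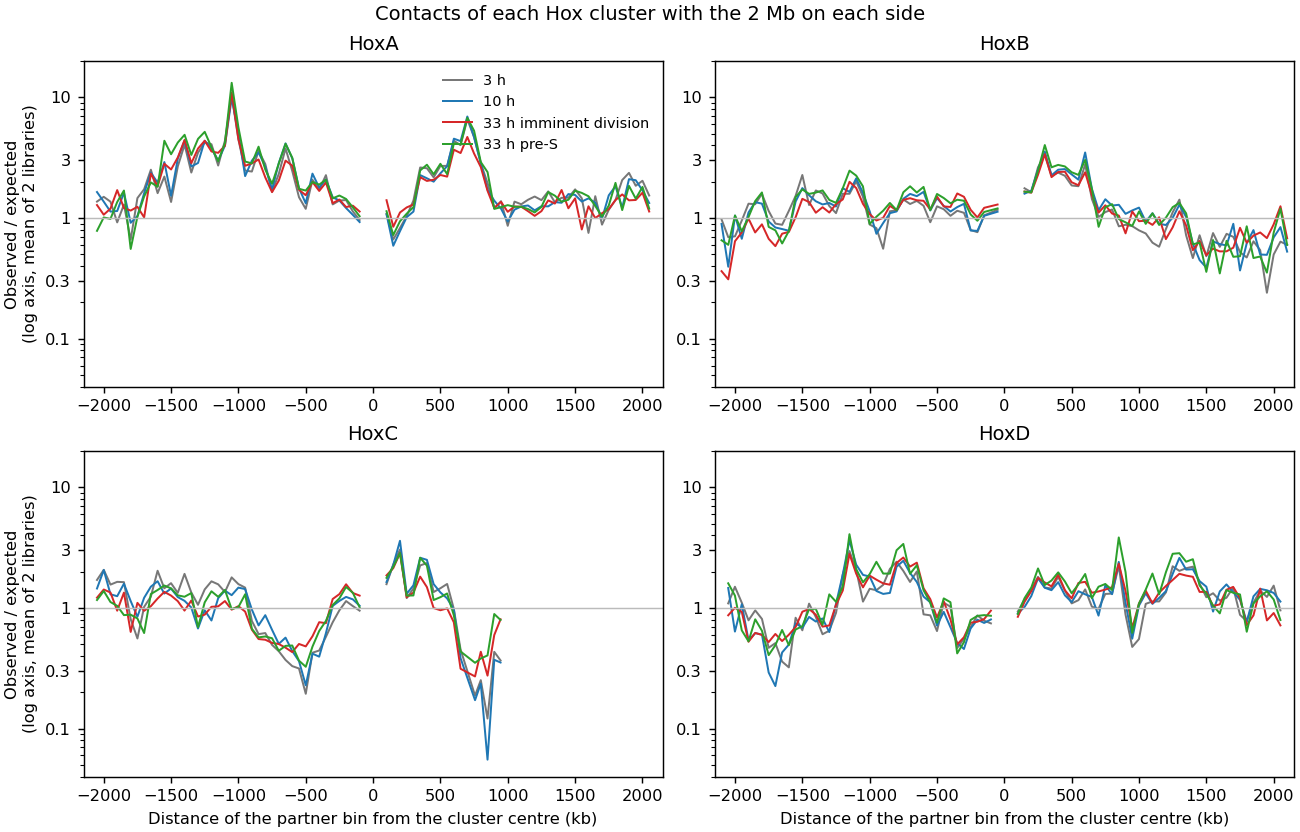
Observed over expected contacts (logarithmic vertical axis) of the bins of each Hox cluster with each 50 kb bin of its neighbourhood, against distance from the cluster centre in kb (horizontal axis), as means of the 2 libraries of each group. The far partners of HoxA stand at -1050 kb and 700 kb, and the HoxC profile ends early because the cluster lies near the end of chromosome 15.

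Over broader flanks, HoxA contacts at 500 to 1000 kb toward lower coordinates averaged 3.41 after 3 h, 3.63 after 10 h, 3.27 at imminent division and 4.01 in pre-S, and those toward higher coordinates 3.22, 3.30, 2.69 and 3.34. HoxC contacts at 250 to 500 kb were 1.86, 1.95, 1.31 and 1.80 toward higher coordinates and 0.412, 0.422, 0.636 and 0.548 toward lower ones. HoxD contacts at 500 to 1000 kb were higher at 33 h on both sides, with 1.72 after 10 h against 1.95 and 2.18 on the lower side and 1.28 against 1.44 and 1.67 on the higher. Flank means are descriptions without a test.

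Single pairs with an anchor in a Hox bin were tested with all others. At imminent division 19 of the 800 Hox-anchored pairs were higher than after 10 h and 8 lower, that is 2.38% and 1%, where 0.645% and 1.39% of all pairs tested were. The 19 include the 8 pairs within clusters given above, and of the 785 pairs that reach outside a cluster 11 were higher (1.4%) and 8 lower (1.02%). Without 10 h replicate 2 the 27 calls became 4, without 10 h replicate 1 they became 12 and without imminent division replicate 1 they became 16. The 3 lower pairs of smallest p joined HoxC to genes toward the chromosome end. Hoxc4 and Itga5 had 68.2 and 59.4 read pairs after 3 h, 74.7 and 71.1 after 10 h, 40.1 and 45.6 at imminent division and 65.0 and 72.5 in pre-S, and fell by 0.75 ± 0.19 (log2, edgeR FDR 0.0099). Hoxc4 and Nckap1l, a subunit of the WAVE complex of blood cells, had 30.2 and 50.4 after 10 h and 17.3 and 24 at imminent division (-0.99 ± 0.25, edgeR FDR 0.013). The bin of Hoxc11 to Hoxc6 and that of Gtsf1 and Gtsf2 had 36.5 and 37.3 against 18.5 and 18.6 (-0.99 ± 0.26, edgeR FDR 0.020). Both libraries of imminent division had the lowest values at the Itga5 and Gtsf1 bins, while at the Nckap1l bin 1 of them lay above a pre-S library (22.3).

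In pre-S cells 4 of the 800 anchored pairs were higher than after 10 h (0.5%) and 2 lower (0.25%), where 0.349% and 0.249% of all pairs tested were. Beside the 3 HoxD pairs above, the higher one joined the bin at chr6:51150041-51200036 to the bin of Hoxa3 to Hoxa11, with 133 and 123 read pairs after 3 h, 134 and 129 after 10 h, 124 and 147 at imminent division and 188 and 203 in pre-S (0.58 ± 0.13, edgeR FDR 0.011). With coverage in the offsets its change was 0.26 and the call was lost (edgeR FDR 0.513). The pre-S libraries stood above the other 6. The lower ones were sparse. Gpnmb and Hoxa13, 3250 kb apart, had 7 and 11 read pairs before normalisation after 10 h and 1 and 0 in pre-S (edgeR FDR 0.040), too few for a fold to be given, and Krt78 and the Hoxc13 bin had 9.45 and 28.0 against 7.27 and 4.53 (-1.83 ± 0.50, edgeR FDR 0.047; with coverage in the offsets -1.45, edgeR FDR 0.183). Without 10 h replicate 2 or pre-S replicate 1 the 6 calls became 0, without 10 h replicate 1 they became 1, and without pre-S replicate 2 they became 2.

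Compared directly, imminent division was lower than pre-S at 5 of the 800 anchored pairs and higher at none, where 0.236% of all pairs tested were lower and 0.136% higher. The bin of Hoxd13 to Hoxd9 and its far partner at chr2:75549520-75599964 had 29.6 and 22.2 read pairs after 3 h, 27.6 and 38.1 after 10 h, 20 and 25.1 at imminent division and 51.2 and 62.7 in pre-S (-1.31 ± 0.24, edgeR FDR 0.00015). Hoxa13 and the Jazf1 bin had 159 and 147, then 161 and 143, then 114 and 119, and in pre-S 171 and 173 (-0.56 ± 0.13, edgeR FDR 0.015). The bin near 51 Mb and that of Hoxa3 to Hoxa11 differed by -0.52 ± 0.12 (edgeR FDR 0.019). At the HoxD partner the pre-S libraries were above the other 6, whereas at the Jazf1 bin the imminent division libraries were below them. Without pre-S replicate 2 none of the 5 was called, without pre-S replicate 1 there was 1, without imminent division replicate 2 there were 2 and without imminent division replicate 1 there were 3.

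Promoter interactivity sums, for each bin with a protein-coding start, the read pairs of its contacts above the distance trend within the chromosome, in log2 counts scaled to library size (logCPM). All 13 Hox bins were among the 12632 bins tested. From 3 h to 10 h none was called in edgeR, where 0.586% of bins were, and the lowest FDR among the Hox bins was that of Hoxb2 and Hoxb1 (log2 change -0.13, edgeR FDR 0.191). At imminent division 7 of 13 were higher than after 10 h and none lower, where 25.5% and 25.4% of bins were, and the median change of the 13 was 0.18. In pre-S 8 of 13 were higher and none lower, where 17.1% and 16.2% of bins were, with a median of 0.21.

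The bins that rose were those of HoxA and HoxD, joined by part of HoxB, and with the interchromosomal coverage of the bin in the offsets only HoxD bins were still called higher than after 10 h. The bin of Hoxd8, Hoxd4 and Hoxd3 had 4.94 and 4.96 logCPM after 3 h, 4.92 and 5.05 after 10 h, 5.44 and 5.48 at imminent division and 5.39 and 5.34 in pre-S, a rise of 0.47 ± 0.06 to imminent division (edgeR FDR 1.54e-08) and of 0.38 ± 0.06 to pre-S. The bin of Hoxd13 to Hoxd9 had 5.76 and 5.74, then 5.81 and 5.81, then 6.10 and 6.14, and in pre-S 6.24 and 6.28, and rose by 0.31 and 0.45. Hoxd1 rose by 0.36 and 0.28. All HoxD libraries of 33 h were above all earlier ones.

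In HoxA the bin of Hoxa3 to Hoxa11, which holds the progenitor-linked Hoxa9 and Hoxa10, had 6.49 and 6.47 logCPM after 3 h, 6.58 and 6.60 after 10 h, 6.83 and 6.83 at imminent division and 7.0 and 6.99 in pre-S (0.24 ± 0.04 and 0.41 ± 0.04 over 10 h, edgeR FDR 2.53e-06 and 5.38e-09). The bin of Hoxa13 rose by 0.19 and 0.31. In HoxB the bin of Hoxb5, Hoxb4 and Hoxb3 rose by 0.18 and 0.19 and that of Hoxb9 to Hoxb6 by 0.21 in pre-S, while Hoxb13 (0.02 and 0.07) and Hoxb2 and Hoxb1 (0.03 and 0.01) were not called. With coverage in the offsets the changes of the called HoxB bins turned, to -0.089 and -0.13 for Hoxb5 to Hoxb3 (edgeR FDR 0.197 and 0.092) and to -0.18 for Hoxb9 to Hoxb6 in pre-S (edgeR FDR 0.0162, a call in the lower direction). No HoxC bin was called in any comparison, with changes between -0.08 and 0.11 against 10 h.

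**Figure D3:**
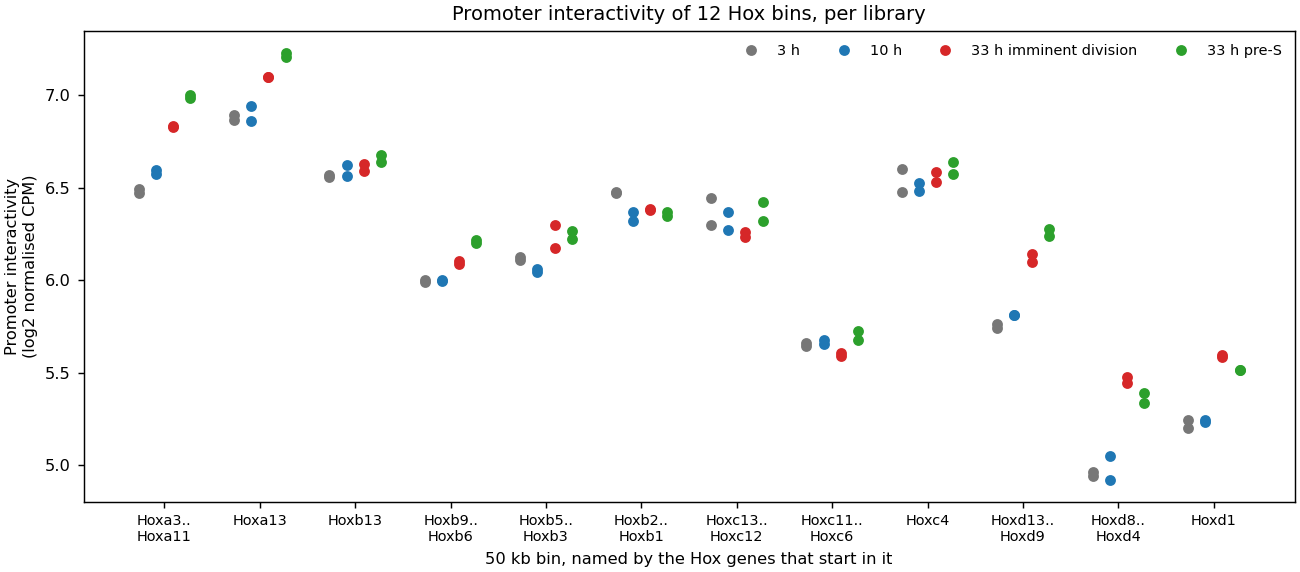
Promoter interactivity (logCPM, vertical axis) of 12 of the 13 Hox bins in the 8 libraries by group; points are libraries. The HoxA and HoxD bins shown lie higher at 33 h than after 3 h and 10 h, and the HoxC bins overlap across groups.

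Compared with pre-S, imminent division was lower in 3 of 13 bins and higher in none, where 12% and 10.6% of bins were. These were the bins of Hoxa3 to Hoxa11 (-0.16 ± 0.04, edgeR FDR 0.00222), Hoxa13 (-0.12 ± 0.04, edgeR FDR 0.0206) and Hoxd13 to Hoxd9 (-0.14 ± 0.05, edgeR FDR 0.0268), and 1 remained when any 1 of the 4 libraries of 33 h was left out. With coverage in the offsets none of these 3 was called lower. The coverage of Hoxa13 rose from 10 h by 0.26 (log2) at imminent division and 0.24 in pre-S. Against 10 h, with coverage in the offsets, 4 of the 13 bins were called at imminent division, 2 higher and 2 lower, where 22% and 22.7% of bins were, and 5 in pre-S, 3 higher and 2 lower, where 13.1% and 13.7% were. The higher ones were the bins of Hoxd8 to Hoxd3 (0.35 and 0.25) and Hoxd1 (0.38 and 0.32) in both, with that of Hoxd13 to Hoxd9 in pre-S (0.22, beside 0.13 and edgeR FDR 0.0682 at imminent division). The lower ones were the bins of Hoxb9 to Hoxb6 (-0.14 and -0.18) and of Hoxb2 and Hoxb1 (-0.19 and -0.30). The bin of Hoxa3 to Hoxa11 was called in neither (0.054 and 0.12, edgeR FDR 0.412 and 0.0971), and the Hoxa13 change became -0.047 and -0.031. Over all bins the middle 90% of coverage changes ran from -0.19 to 0.23 at imminent division and from -0.24 to 0.48 in pre-S.

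The insulation score is the log2 mean count in the 500 kb square that crosses a bin, relative to the chromosome, so that a low score marks a boundary between domains. The Hox bins stood between percentile 54.1 (Hoxd13 to Hoxd9, score -0.17) and percentile 90.1 (Hoxb2 and Hoxb1, 0.77) of all bins, so that none was among the lowest scores. Local minima fell inside 3 clusters, in the bin of Hoxa3 to Hoxa11 (0.09), in the HoxB bin without a Hox gene between Hoxb13 and Hoxb9 (0.15) and in the bin of Hoxd13 to Hoxd9.

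From 3 h to 10 h limma called 0 of 46842 bins (0%), with 6387 at an unadjusted p under 0.05. At imminent division 4 of 13 Hox bins scored higher and none lower, where 43.7% and 20.7% of bins did and the median bin moved by 0.12. In pre-S 5 were higher and none lower, where 37.2% and 20.4% did.

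The changes were largest at Hoxb13, whose score was -0.06 and -0.13 after 3 h, 0.03 and 0.07 after 10 h, 0.32 and 0.34 at imminent division and 0.31 and 0.39 in pre-S (0.28 ± 0.06 and 0.30, limma FDR 0.00239 and 0.00302). The bin of Hoxb9 to Hoxb6 rose by 0.21 in both and that of Hoxb5 to Hoxb3 by 0.13 and 0.18. The bin of Hoxd8 to Hoxd3 rose at imminent division (0.14), and Hoxd1 (0.14) and Hoxb2 and Hoxb1 (0.18) in pre-S. The HoxB scores turned when counts were divided by coverage, to -0.12 for Hoxb13, -0.18 for Hoxb9 to Hoxb6 and -0.29 for Hoxb5 to Hoxb3 at imminent division, where the latter pair were then called lower (limma FDR 0.00775 and 5.16e-05) and Hoxb13 was not called (limma FDR 0.070). Of all 13 Hox bins, 9 were then called lower at imminent division and none higher, where 30.6% and 36.5% of bins were. In pre-S the 4 HoxB bins became -0.0017 for Hoxb13, -0.062 for Hoxb9 to Hoxb6, -0.12 for Hoxb5 to Hoxb3 and -0.13 for Hoxb2 and Hoxb1, and none of them was called. Outside HoxB, 5 Hox bins were then called higher in pre-S and none lower, where 34.7% and 22.3% of bins were. Without 1 library the counts of 4 and 5 fell to between 1 and 2 for each of the 4 libraries compared, and the first also to 2 without either pre-S library. No Hox bin was called between imminent division and pre-S, where 9.94% of bins were, with limma. With counts divided by coverage 11 of the 13 were called in this comparison, all lower at imminent division, where 36.4% of bins were higher and 41.2% lower.

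The boundary ratio compares the read pairs of a 100 kb region with the 1 Mb toward lower coordinates and the 1 Mb toward higher ones (log2, lower over higher side), and was called where it moved by more than 1.1-fold. At imminent division 3 of the 9 Hox regions were higher than after 10 h and none lower, where 8.84% and 9.32% of 23642 regions were. The region of Hoxc4 had -0.38 and -0.33 after 3 h, -0.28 and -0.32 after 10 h, 0.12 and -0.01 at imminent division and -0.11 and 0.01 in pre-S (0.36 ± 0.06, edgeR FDR 0.000145). The region of Hoxb9 to Hoxb6 had -0.45 and -0.56, then -0.50 and -0.47, then -0.18 and -0.19, and in pre-S -0.23 and -0.29 (0.30 ± 0.05, edgeR FDR 0.00145), and that of Hoxb5 to Hoxb1 rose by 0.24 (edgeR FDR 0.0412). All 3 ratios moved toward 0, an even split between the sides. No Hox region was called from 3 h to 10 h, in pre-S or between the groups of 33 h, where 0.389%, 4.82% and 5.55% of regions were.

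Compartments are the 2 classes, active (A, positive score) and inactive (B, negative), into which the leading component of the contact map divides each chromosome. All 9 Hox regions of 100 kb were positive in all 8 libraries, where 46.1% to 48.2% of 23789 regions were positive in a library. HoxA scored 1.16 to 1.36, HoxC 0.989 to 1.15, HoxB 0.664 to 1.11, the region of Hoxd13 to Hoxd9 0.0905 to 0.507 and that of Hoxd8 to Hoxd1 0.0038 to 0.238. HoxD was thus the cluster nearest the line between compartments.

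At imminent division limma called 3 Hox regions higher than after 10 h and 1 lower, where 8.75% and 14.3% of regions were. The higher ones were all of HoxB, with Hoxb13 at 0.66 and 0.74 after 3 h, 0.74 and 0.82 after 10 h, 1.05 and 1.07 at imminent division and 0.89 and 0.90 in pre-S (0.28 ± 0.04, limma FDR 0.000157), Hoxb9 to Hoxb6 rising by 0.17 and Hoxb5 to Hoxb1 by 0.23. The lower one was Hoxd13 to Hoxd9, with 0.44 and 0.51, then 0.33 and 0.41, then 0.09 and 0.24, and in pre-S 0.23 and 0.24 (-0.20 ± 0.05, limma FDR 0.0064). In pre-S Hoxb13 was higher by 0.12 and Hoxc4 changed by -0.12, where 2.96% and 22% of regions were.

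Imminent division scored higher than pre-S at Hoxb13 (0.16, limma FDR 0.0096), Hoxb5 to Hoxb1 (0.14, limma FDR 0.0136) and Hoxc4 (0.12, limma FDR 0.0347), where 15% of regions did and 2.71% scored lower. No Hox region was called from 3 h to 10 h, where 3.26% were. Without any 1 of the 4 libraries of 33 h these 3 calls became 1 or 0. The 2 calls of pre-S became 0 without 10 h replicate 1 or pre-S replicate 2, 1 without 10 h replicate 2 or pre-S replicate 1, and 5 without either 3 h library.

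Contacts between clusters were few. The 6 pairs of clusters together had 5 and 2 read pairs after 3 h, 2 and 5 after 10 h, 11 and 21 at imminent division and 11 and 11 in pre-S. Against the number that the interchromosomal coverage of the bins gives, these were ratios of 3.42 and 0.733, 1.15 and 2.25, 2.89 and 4.26, and 5.07 and 4.59. Pooled by group the ratio was 1.67 (95% exact Poisson interval 0.671 to 3.44) after 3 h, 1.77 (0.711 to 3.65) after 10 h, 3.66 (2.51 to 5.17) at imminent division and 4.82 (3.02 to 7.30) in pre-S. The intervals cover counting error only, and those of the early groups include 1 while those of 33 h do not. The libraries of 3 h and imminent division overlap. These values depend on the window. With 500 kb added on each side the ratios were 1.36 (1.23 to 1.5) after 3 h, 1.27 (1.15 to 1.41) after 10 h, 1.55 (1.45 to 1.65) at imminent division and 1.47 (1.33 to 1.62) in pre-S, so all 4 groups lay above 1 and the groups of 33 h stood in the other order. With 2 Mb they were 1.27, 1.27, 1.32 and 1.33.

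Over all 8 libraries HoxA and HoxC had 20 read pairs against 3.23 expected (6.19, 3.78 to 9.56), HoxA and HoxB 18 against 4.42 (4.08, 2.42 to 6.44) and HoxB and HoxC 21 against 7.21 (2.91, 1.80 to 4.45). HoxD had 4 with HoxA (2.62, 0.714 to 6.71), 4 with HoxC (1.61, 0.438 to 4.12) and 1 with HoxB (0.388, 0.0098 to 2.16). With 500 kb added on each side the ratios were 1.97 for HoxA and HoxC, 1.71 for HoxB and HoxC, 1.67 for HoxA and HoxB, and 1.07, 0.656 and 0.520 for HoxD with HoxA, HoxC and HoxB. HoxD thus had the 3 lowest ratios in these 2 windows, while with 2 Mb its ratio with HoxA was 1.30, beside 1.29 for HoxA and HoxB, and it was also the cluster with the lowest compartment scores.

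**Figure D4:**
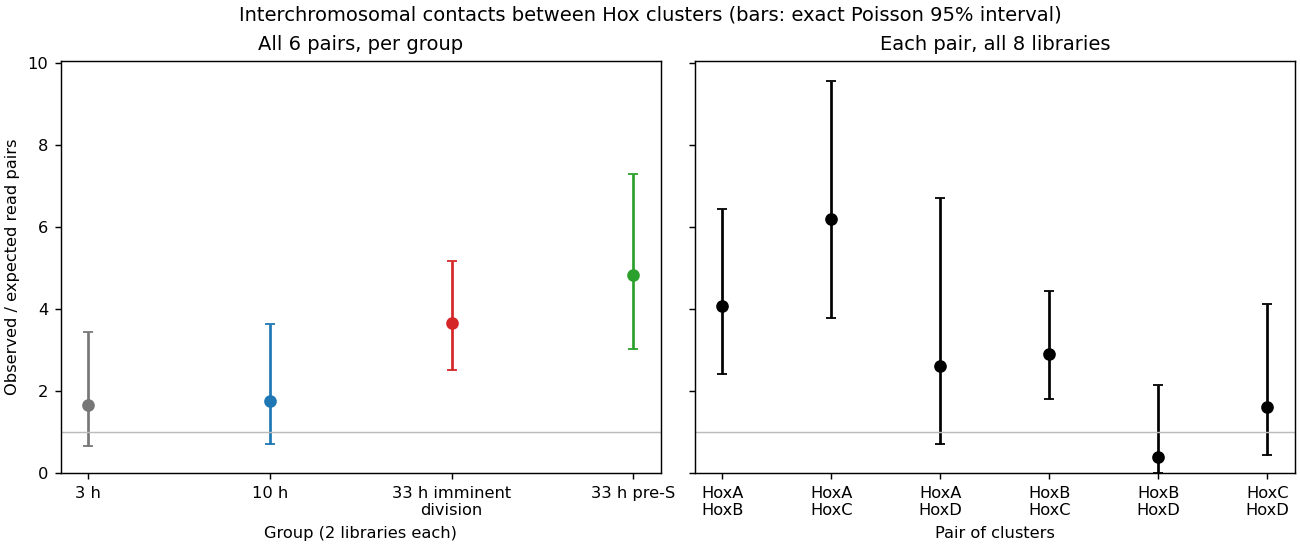
Observed over expected read pairs between different Hox clusters (vertical axis) by group and by pair of clusters, with 95% exact Poisson intervals as bars. Pooled by group the ratio is 1.67 after 3 h, 1.77 after 10 h, 3.66 at imminent division and 4.82 in pre-S. The pairs with HoxD have the lowest ratios in this window, on few read pairs and with intervals that overlap that of HoxB and HoxC. With 500 kb added on each side the group ratios, not drawn, are 1.36, 1.27, 1.55 and 1.47.

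At 1 Mb, where the bins hold enough counts for a test, the 6 pairs of clusters correspond to 9 pairs of bins because HoxC spans a bin edge. Only the pair of 1 Mb bins that hold HoxA and HoxB was called by edgeR. Most read pairs of this bin pair lie outside the clusters, whose own bins had only the few given above. Before normalisation it had 28 and 20 read pairs after 3 h, 15 and 16 after 10 h, 55 and 85 at imminent division and 39 and 38 in pre-S. It rose from 10 h by 1.42 ± 0.27 at imminent division (edgeR FDR 0.0021) and by 1.51 ± 0.30 in pre-S (edgeR FDR 0.0094), where 0.0377% and 0.00846% of 2671848 pairs tested were higher and 0.045% and 0.0165% lower. From 3 h to 10 h its change was -0.67 ± 0.33 (unadjusted p 0.046, edgeR FDR 0.983), and edgeR called 0 of all pairs (0%), with 135287 at an unadjusted p under 0.05. The 10 h libraries had the lowest counts, below that of the shallowest library of 3 h. HoxA and HoxC had 28 and 30 after 10 h and 61 and 95 at imminent division (0.68 ± 0.22, edgeR FDR 0.276). Both calls were lost without either 10 h library, the one at imminent division also without its replicate 2 and the one in pre-S without either pre-S library, and both with coverage in the offsets or with DESeq2.

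Among the 139 promoter bins of the neighbourhoods outside the clusters, calls are given by cluster. Around HoxA 6 of 16 bins were higher at imminent division than after 10 h and none lower, around HoxD 16 of 22 and none, around HoxB 16 and 12 of 57, and around HoxC 3 and 31 of 44, beside 25.5% and 25.4% over all bins. Evx1 next to HoxA, a homeobox gene related to Evx2, rose by 0.29, and Agps near HoxD, an enzyme of ether lipid synthesis, by 0.29. The bins of Mucl2 (-0.56), of Pde1b and Ppp1r1a (-0.56) and of Glycam1 (-0.52), all near HoxC, fell. In pre-S the counts were 6 and 0 around HoxA, 12 and 1 around HoxD, 8 and 12 around HoxB, and 3 and 21 around HoxC, beside 17.1% and 16.2%. Keratin genes lie in the HoxC neighbourhood, and the bin of Krt5 and Krt71 fell by 0.28 in pre-S.

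Genes that work with or upon the clusters were followed by the same measure. Of 19 promoter bins of Polycomb genes, whose products silence Hox clusters, 8 were higher and 7 lower at imminent division, beside 25.5% and 25.4% over all bins, and 5 and 5 in pre-S. Mtf2, a partner of the methylating complex, rose by 0.30 and 0.23, and Bmi1, of the ubiquitylating complex, by 0.26 and 0.19. The median change over the 19 bins was -0.019 and -0.064. Of 9 bins of Trithorax and MLL genes, which keep Hox genes active, 2 rose and 3 fell at imminent division and 1 and 2 in pre-S, near the shares of all bins (25.5% and 25.4%, then 17.1% and 16.2%), with the H3K79 methyltransferase Dot1l at -0.24 and -0.31.

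Of 9 bins of TALE homeobox genes, whose proteins bind DNA together with Hox proteins, 2 rose and 3 fell at imminent division and 2 and 3 in pre-S, beside the same shares of all bins. Meis1 rose by 0.32 and 0.34, and Meis2 by 0.49 at imminent division, while the median change over the 9 bins was -0.052 and -0.056. Of 6 bins of architectural factors 1 rose, the cohesin subunit Stag1 (0.31 and 0.18), and 1 fell, Ctcf (-0.19 and -0.13), where 25.5% and 25.4% of all bins did at imminent division and 17.1% and 16.2% in pre-S.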

How the data were processed

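The deposited files hold read pair counts of 1 in situ Hi-C library each, by pair of bins. The authors digested chromatin with MboI, aligned the reads to mm10 with the diffHic pipeline (cutadapt and bowtie2), marked duplicates, removed dangling ends and long fragments, and counted read pairs into 50 kb bins without normalisation; duplicates were biological. Bins were placed here by midpoints of MboI fragments of GRCm38, which shares coordinates with mm10, in the order of chromosomes 1 to 19, X and Y. Total counts per library set the precision and are given in the text.

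Bin pairs needed at least 10 read pairs summed over the 8 libraries and an abundance over 4-fold the background. They were fitted in edgeR 4.0.16 (quasi-likelihood, loess offsets up to and beyond 1500 kb apart, all 8 libraries, Benjamini-Hochberg over all pairs), under R 4.3.3. Promoter bins needed 200 counts. Insulation and compartment scores were tested with limma 3.58.1, and the boundary ratio with edgeR against a fold of 1.1. Python 3.11.15, numpy 2.4.6 and scipy 1.17.1 were used elsewhere. Scripts were tested on simulated data. The alternatives were TMM factors, interchromosomal coverage in the offsets, DESeq2 1.42.0, other bin sizes and filters, the replicate number as a block, and each library left out.

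The members and gene lists were chosen with earlier results of these data known. Beside the Hox genes, the text names per comparison up to 3 anchored pairs and up to 3 neighbouring promoter bins of smallest p in each direction, 2 neighbourhood pairs, and from the gene lists the 2 bins of smallest p that pass. Bins with over 10% undetermined bases, or with interchromosomal coverage over 4-fold from the median, were left out. Regions that the authors exclude were not masked here. X and Y were left out of the fits. The values of 1 Hox bin, which stays in all counts, and of 1 marker gene are not reported here.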

Additional observations from a re-analysis of the deposited data

Results flagged for a closer look

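Among the results of the Hox bins named in the text, 9 differed between the 2 groups of 33 h in a direct test. Of the bin pairs, the contact of the Hoxd13 to Hoxd9 bin with chr2:75549520-75599964 was lower at imminent division than in pre-S (log2 difference -1.31), as were that of Hoxa13 with the Jazf1 bin (-0.56) and that of the Hoxa3 to Hoxa11 bin with chr6:51150041-51200036 (-0.52). Promoter interactivity was lower at imminent division in the bins of Hoxa3 to Hoxa11 (-0.16), Hoxa13 (-0.12) and Hoxd13 to Hoxd9 (-0.14), and with coverage in the offsets none of these 3 was called lower. Compartment scores were higher at imminent division in the regions of Hoxb13 (0.16), Hoxb5 to Hoxb1 (0.14) and Hoxc4 (0.12). The FUCCI strain, the sort and the cell cycle stage cannot be told apart in these differences. The 2 libraries of a group leave no test for a library far from the others.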

How the results depend on the processing

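Counts of calls are for imminent division over 10 h, pre-S over 10 h and imminent division over pre-S, in that order. The alternatives for pairs within 1 cluster were chosen after seeing the data. With interchromosomal coverage in the offsets, Hox-anchored DIs went from 27, 6 and 5 to 76, 3 and 28, those within 1 cluster from 8, 3 and 0 to 4, 0 and 1, and those in the neighbourhoods from 191 to 450 and from 21 to 152, with 1 from 3 h to 10 h. These counts of pairs take both directions together. The share of all pairs called in that fit is not given, so they do not show whether Hox pairs differ from all pairs. Promoter calls went from 7, 8 and 3 to 4, 5 and 1, with 1 from 3 h to 10 h. The 1 between the groups of 33 h was higher at imminent division, where 12.3% of bins were higher and 13.8% lower. The 3 before were all lower, so none of them was kept. The 1 from 3 h to 10 h was higher, where 2.26% of bins were higher and 1.84% lower. Insulation calls at imminent division became 9, all lower (4 before, all higher), where 36.5% of bins were higher and 30.6% lower. In pre-S they were 5, all higher, where 34.7% were higher and 22.3% lower. Between the groups of 33 h they became 11, all lower (0 before), where 36.4% were higher and 41.2% lower. From 3 h to 10 h they became 5, all higher (0 before), where 20.3% were higher and 11.5% lower. The calls between clusters became 0, and the mean ratio within HoxB 1.03 (1.17 before), HoxC 0.566 (1.30 before) and HoxD 2.07 (0.934 before). Promoter changes reversed at imminent division in the bins of Hoxa13 (-0.047) and Hoxb5 to Hoxb3 (-0.089), and in pre-S in those of Hoxa13 (-0.031), Hoxb9 to Hoxb6 (-0.18) and Hoxb5 to Hoxb3 (-0.13). Insulation changes reversed at imminent division at Hoxb13 (-0.12), Hoxb9 to Hoxb6 (-0.18) and Hoxb5 to Hoxb3 (-0.29), and in pre-S at Hoxb13 (-0.0017), Hoxb9 to Hoxb6 (-0.062), Hoxb5 to Hoxb3 (-0.12) and Hoxb2 and Hoxb1 (-0.13).

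DESeq2 gave 0 anchored, within-cluster, neighbourhood and between-cluster calls in each comparison (at imminent division 49 anchored and 9 within-cluster pairs had an unadjusted p under 0.05), and 1 promoter call between the groups of 33 h. A background filter of 2-fold gave 14, 2 and 2 anchored calls, 1 within clusters in pre-S and 72, 11 and 7 in the neighbourhoods. TMM factors gave 3 anchored calls and 1 within a cluster in pre-S, and 323 and 44 neighbourhood calls against 10 h. Bins of 100 kb gave 48 anchored calls at imminent division and 12 between the groups of 33 h. Shares of all pairs called in these other fits are not given either, so the counts describe the Hox pairs alone, in both directions together. A 250 kb square gave 2 insulation calls between the groups of 33 h. Flanks of 500 kb gave 5 boundary calls at imminent division and 1 in pre-S, and no fold threshold gave 6, 2 and 2. Shares of all bins and regions called in these insulation and boundary fits, and in the DESeq2 promoter fit, are not given. These counts therefore do not show whether Hox bins or regions differ from all. Expected values from the own chromosome gave 0.959 for HoxB. Between clusters, 500 kb or 2 Mb on each side gave ratios of 1.55 and 1.32 at imminent division and 1.47 and 1.33 in pre-S. The cause of these moves was not tested.

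Leaving out 1 library at a time gave 4 to 36, 0 to 7 and 0 to 6 anchored calls, 3 to 8 and 0 to 3 within clusters, and 21 to 224, 0 to 30 and 2 to 29 in the neighbourhoods. The neighbourhood counts moved by over 1.5 times without any 1 of the 4 libraries of the groups compared, and were lowest without 10 h replicate 2, pre-S replicate 1 and pre-S replicate 2, in that order. It gave 6 to 7, 8 to 8 and 1 to 4 promoter calls, 1 to 6, 1 to 6 and 0 to 1 insulation calls (0 to 2 from 3 h to 10 h), 2 to 3 boundary calls at imminent division, 3 to 4, 0 to 5 and 0 to 4 compartment calls and 0 to 1 calls between clusters against 10 h. The mean ratio within clusters ran from 1.08 to 1.15 (HoxA), 1.15 to 1.2 (HoxB), 1.26 to 1.33 (HoxC) and 0.901 to 0.965 (HoxD), and between clusters from 0.733 to 3.42 at 3 h, 1.15 to 2.25 at 10 h, 2.89 to 4.26 at imminent division and 4.59 to 5.07 in pre-S. A group left with 1 library was assumed to vary like the others. Shares of all pairs, bins and regions called are not given for these fits, nor for the replicate block below.

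Replicate numbers were not taken to pair these samples. Deviations of same-numbered libraries correlated between -0.0961 and 0.0252 over 453433 bin pairs. Counting error in single bin pairs can hide a pairing, so this check cannot exclude it. With the replicate number as a block, insulation calls at imminent division went from 4 to 2, anchored calls were 25, 4 and 5, and the other counts moved by at most 1.5 times. Limits are set by 2 libraries a group, by bins of 50 kb that hold up to 7 Hox genes, and by the 68 read pairs between clusters in all, so single genes were not resolved.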

Other observations

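In the 4 neighbourhoods, 91 of 8058 pairs were higher at imminent division than after 10 h and 100 lower, beside 0.645% and 1.39% of all pairs tested, and in pre-S 12 were higher (0.149%) and 15 lower (0.186%), beside 0.349% and 0.249%. The bin of Mucl2, a mucin-like gene, and the bin next to it had 125 and 125 normalised read pairs after 10 h, 208 and 208 at imminent division and 170 and 160 in pre-S (log2 change at imminent division 0.74 ± 0.12, edgeR FDR 7.27e-06). The Krt78 bin and that of Calcoco1 had 30.5 and 33.6 after 10 h against 12.2 and 9.44 (-1.59 ± 0.31, edgeR FDR 0.000401), and a bin into which Krt80 reaches and that of Pfdn5 and Myg1 had 10.2 and 12.4 after 3 h, 29.6 and 13.8 after 10 h, 4.68 and 4.09 at imminent division and 19.6 and 14.9 in pre-S (-2.27 ± 0.43, edgeR FDR 0.000282). Without 10 h replicate 1, the highest of these, the latter change was -1.68 and was not called (edgeR FDR 0.151), and that of the Krt78 bin was not called without 10 h replicate 2. In pre-S the contact of the Acvr1b bin with the bin into which Krt80 reaches fell from 135 and 105 to 63.6 and 63.0 (-0.92 ± 0.18, edgeR FDR 0.000919). With coverage in the offsets it had -0.64 and the call was lost (edgeR FDR 0.0764), as it was without 10 h replicate 1 or pre-S replicate 1.

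The bin of Glycam1, an endothelial mucin 596 kb from HoxC, had an insulation score of -2.17, at percentile 0.446 of all bins and the lowest of the local minima in the 4 neighbourhoods. It contacted the bin at chr15:103800045-103849993 with 9.39 and 9.01 normalised read pairs after 10 h, 27.8 and 24.7 at imminent division and 7.31 and 12.4 in pre-S (imminent division over pre-S 1.5 ± 0.37, edgeR FDR 0.025). The imminent division libraries stood above the other 6, and without any 1 of the 4 libraries of 33 h the call was lost.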
